A study of Sus scrofa with 4 samples.

Results

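Claudins are a family of membrane proteins of the tight junction, and 9 of them (CLDN1, CLDN2, CLDN3, CLDN4, CLDN5, CLDN7, CLDN8, CLDN10 and CLDN12) were followed here in the thymus of IL2RG KO and WT pigs. Every array probe whose RefSeq accession belongs to 1 of these pig genes was taken, whatever its value. A probe was found for 8 of the 9 claudins, with 1 probe each, among the 43603 probes of the array. No probe was matched to CLDN1. Thymus RNA of Minnesota miniature swine was hybridised to 4 arrays, with 2 arrays of pigs labelled IL2RG+/- (KO) and 2 arrays of pigs labelled wildtype (WT), and each array carried 1 sample. The KO animals are described as monoallelic mIL2RG+/Δ69-368 pigs, in which TALENs had cut IL2RG, the gene of the common gamma chain of several interleukin receptors. They were born after somatic cell nuclear transfer from edited cell colonies, and the sources used here do not say from which colony each array animal came or how old it was. The KO thymus was rudimentary. Nothing says whether the replicates of a genotype came from separate litters, so that p-values measure the spread between these samples alone.

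Claudins of neighbouring cells bind each other across the gap between the cells and close it or, in some members, form pores that let selected ions pass. Which claudins a cell makes sets how tight its layer is, and the family differs between epithelia, vessel walls and other tissues. In the thymus most cells are developing T cells, which form no tight junctions. Epithelial cells make up the supporting network in which those T cells mature, and claudins 3 and 4 are known as marks of the lineage that forms the epithelium of the medulla in mice. The claudin of the vessel wall is claudin 5.

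Values below are normalized log2 signals, that is, the log2 brightness of a spot minus the 75th percentile of its array, unless a processed signal (the linear brightness after background subtraction) is named. A difference is KO minus WT. Probes differ in how strongly they bind, so that levels were not compared between claudins. A call of higher or lower needed an adjusted p under 0.05 in limma (Benjamini-Hochberg, over the 31959 probes tested) and a change of 2-fold or more. A probe was tested where the 2 arrays of either genotype marked it as well above background. Between 67.9% and 74.5% of probes were well above background on an array, no spot was saturated, and the 75th percentile of the processed signal was between 621 and 762. The targeted gene, IL2RG, was lower in KO at both of its probes, and the brighter one gave -3.15 and -3.29 in KO against -0.13 and 0.52 in WT. For a single gene, the smallest p of an exact two-sided permutation test of 2 against 2 arrays is 0.333. Where 1 array was left out, its genotype was left with a single array and the spread came from the pair of the other genotype, so that a call can be lost with the difference unmoved.

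Of the 8 claudins with a probe, 7 were tested, 5 were higher in KO, 1 was lower and 1 was not called. CLDN10, CLDN7, CLDN4, CLDN3 and CLDN5 rose, CLDN12 fell, and CLDN8 did not pass the test. CLDN2 was not well above background on any array. For comparison, 34.0% of all tested probes were called, 21.0% as higher in KO and 13.0% as lower. The median log2 difference of the 7 tested claudins was 1.86, compared with -0.06 over all tested probes. The claudins followed were chosen with earlier results of these data known, so that this comparison only describes them. Both KO values lay on the same side of both WT values for all 7 tested claudins, as for 78.7% of all tested probes. The linear levels of the 7 tested probes summed to 9.42 and 9.21 times the 75th percentile in KO and 2.87 and 2.72 in WT. Such a sum is weighted to its brightest probes, which by mean signal were CLDN7, CLDN12 and CLDN10. The samples are whole tissue, in which fewer cells of a type and less RNA per cell cannot be told apart.

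**Figure D1:**
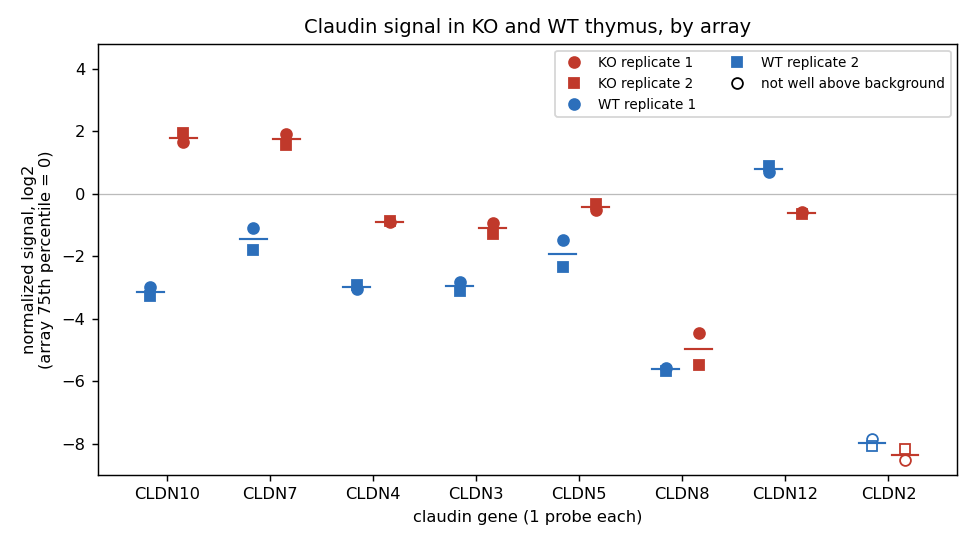
Normalized log2 signal (vertical axis) of each claudin probe (horizontal axis) on the 2 KO and the 2 WT arrays, 1 point per array, with a line at each genotype's mean. The KO points lie above the WT points for CLDN10, CLDN7, CLDN4, CLDN3, CLDN5 and CLDN8 and below them for CLDN12, while CLDN2 was not well above background on any array. Heights are not comparable between probes.

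CLDN3 and CLDN4 are claudins of many simple epithelia that bind the enterotoxin of Clostridium perfringens, and on the Sscrofa11.1 assembly of RefSeq they are next to each other with 0 protein-coding genes between them. The CLDN4 signal was -0.91 and -0.87 in KO, compared with -3.06 and -2.92 in WT, from processed signals of 406 and 380 against 74.3 and 92.0. Both KO arrays were high, both WT arrays were low, and the values within a genotype differed by 0.15 or less. The means were -0.89 ± 0.03 (SD, n = 2) for KO compared with -2.99 ± 0.10 (SD, n = 2) for WT, a log2 difference of 2.10 with a standard error of 0.16 (4.28-fold, adjusted p = 0.00243 in limma). CLDN3 gave -0.92 and -1.28 in KO and -2.81 and -3.11 in WT, from processed signals of 403 and 286 against 88.4 and 80.3. The groups of CLDN3 were likewise apart, with KO replicate 2 below KO replicate 1. Its log2 difference was 1.86 with a standard error of 0.22 (3.63-fold, adjusted p = 0.00514 in limma). Within slide 1, which held KO replicate 1 and WT replicate 2, the difference of CLDN3 was 2.19, and within slide 2, which held the other 2 arrays, it was 1.53. For CLDN4 the differences within the slides were 2.01 and 2.19.

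CLDN7, a claudin of the lateral membrane of epithelial cells that binds the adhesion molecule EPCAM, gave 1.92 and 1.58 in KO and -1.11 and -1.78 in WT. The processed signals were 2876 and 2076 in KO and 288 and 202 in WT. The lowest KO array was far above the highest WT array, and the arrays of each genotype also differed from each other, by 0.34 in KO and 0.67 in WT. The means were 1.75 ± 0.24 (SD, n = 2) and -1.45 ± 0.48 (SD, n = 2), a log2 difference of 3.19 with a standard error of 0.30 (9.14-fold, adjusted p = 0.00327 in limma). Within slides 1 and 2 the difference was 3.70 and 2.69. Of all tested probes, 3.01% had a larger rise.

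CLDN8 works with CLDN4 in the distal tubules of the kidney. Its signal was -4.47 in KO replicate 1, -5.48 in KO replicate 2, and -5.56 and -5.69 in WT. KO replicate 1 stood above the other 3 arrays, which lay close together. The processed signals of CLDN8 were 34.4, 15.5, 13.1 and 13.5 in the same order, so that this was a dim probe. The log2 difference of 0.65 had a standard error of 0.37 and was not called (adjusted p = 0.217 in limma). Leaving out KO replicate 2 gave 1.15 and leaving out KO replicate 1 gave 0.14, and the adjusted p in limma was 0.0711 and 0.771.

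CLDN10 and CLDN2 are claudins that form ion pores, CLDN10 in the kidney and in several glands and CLDN2 in leaky epithelia. CLDN10 had the largest difference of the tested claudins. It gave 1.66 and 1.93 in KO and -2.98 and -3.28 in WT, from processed signals of 2413 and 2654 against 78.5 and 71.5. The probe was well above background on all 4 arrays, bright in both KO arrays and dim in both WT arrays. Its means were 1.80 ± 0.19 (SD, n = 2) and -3.13 ± 0.21 (SD, n = 2), which is a log2 difference of 4.93 with a standard error of 0.20 (30.5-fold, adjusted p = 0.00205 in limma). The difference was 4.94 within slide 1 and 4.92 within slide 2, and 0.178% of all tested probes had a larger rise. CLDN2 had processed signals between 2.05 and 2.67 and no difference was computed for it.

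CLDN5, the claudin that seals the endothelium of blood vessels, gave -0.51 and -0.34 in KO and -1.49 and -2.34 in WT. The groups did not overlap, but the WT arrays differed from each other by 0.85. The processed signals were 535 and 549 in KO and 221 and 137 in WT. The means were -0.43 ± 0.12 (SD, n = 2) and -1.92 ± 0.60 (SD, n = 2), and the log2 difference was 1.49 with a standard error of 0.33 (2.81-fold, adjusted p = 0.0235 in limma). The call was not kept with a single KO array, while the difference itself moved little. Leaving out KO replicate 1 gave a difference of 1.58 (limma, adjusted p = 0.0834), and leaving out KO replicate 2 gave 1.41 (limma, adjusted p = 0.109). Without WT replicate 1 it was 1.92 and without WT replicate 2 it was 1.06, both past the threshold. It was 1.83 within slide 1 and 1.15 within slide 2.

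CLDN12, an atypical claudin that lacks the usual binding motif for the scaffold of the junction and is made in many tissues, was the claudin that fell. KO arrays gave -0.57 and -0.66 and WT arrays gave 0.71 and 0.90, from processed signals of 514 and 439 against 1017 and 1296. Both KO arrays were low and both WT arrays were high. The means were -0.62 ± 0.07 (SD, n = 2) for KO compared with 0.81 ± 0.13 (SD, n = 2) for WT, so that the log2 signal fell by 1.42 with a standard error of 0.16 (2.68-fold lower, adjusted p = 0.00505 in limma). Within slides 1 and 2 the difference was -1.47 and -1.37. When KO replicate 2 was left out, the difference of -1.38 lay just outside the threshold (limma, adjusted p = 0.0514). Of all tested probes, 7.58% had a larger fall.

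When the claudins were put in order of their log2 difference, CLDN10 came first, then CLDN7, CLDN4, CLDN3, CLDN5 and CLDN8, and CLDN12 came last. To see which neighbours in this order stood apart, the gap between their differences was taken over every pairing of a KO with a WT array. CLDN10 lay above CLDN7 in every pairing, by 1.24 to 2.23, and CLDN7 lay above CLDN4, by 0.50 to 1.69. CLDN4 and CLDN3 did not differ beyond their spread (gaps from -0.19 to 0.66), nor did CLDN3 and CLDN5 (-0.17 to 0.91) or CLDN5 and CLDN8 (-0.11 to 1.80). CLDN8 lay above CLDN12 by 1.46 to 2.69. No test was made of these gaps, and their means lie above 0 because the claudins were put in order by the same values. CLDN8 was dim, and its difference was 0.03 under normexp.

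**Figure D2:**
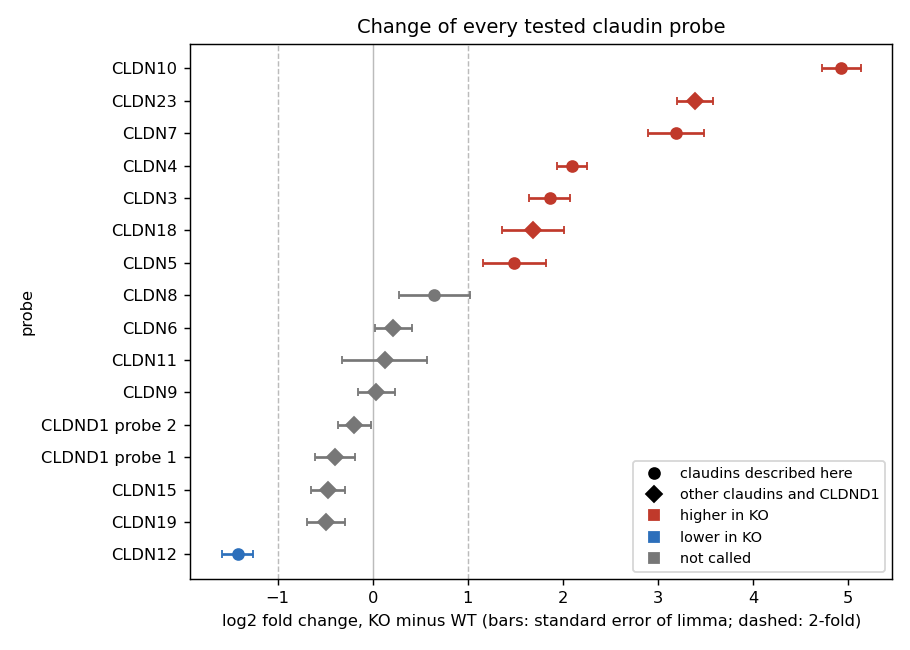
Log2 difference between KO and WT (horizontal axis, KO minus WT) of each tested claudin (vertical axis), the 7 members and the other claudins of the array, with bars of 1 standard error of the limma fit and colours for the call. CLDN10 lies at 4.93, CLDN7 at 3.19 and CLDN12 at -1.42. CLDN23 and CLDN18 are drawn at their fitted values of 3.39 and 1.68 although neither was well above background in WT, and the other claudins that were not called lie between -0.50 and 0.22.

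The rest of the family on the array was looked at in the same way. Of 15 further genes, 14 claudins and the related CLDND1, 13 had a named probe and 8 were tested. CLDN6, CLDN9, CLDN11, CLDN15, CLDN19 and CLDND1 were not called. Their tested probes were well above background on all 4 arrays, except that CLDN11 was so on 2 KO arrays and 1 WT array. CLDN23 and CLDN18 were well above background on KO arrays alone, so that no call other than higher could be made for them. The median log2 difference over these 8 was 0.08. It was the same with CLDN23 and CLDN18 set against a floor in WT, the lowest signal an array marked as well above background. The probes of CLDN14, CLDN16, CLDN17, CLDN20 and CLDN22 were not well above background on any array. CLDN23 gave -4.35 and -4.52 in KO and was not well above background on either WT array. Against the floor it was 2.61-fold higher in KO. CLDN18, a claudin of the stomach and the lung, was likewise not well above background in WT. It was 1.24-fold higher in KO against the floor, which is below the 2-fold needed for a call. The tested probes of CLDN23 and CLDN18 were dim, with processed signals between 15.8 and 37.4 in KO. A second probe of CLDN18 and a second probe of CLDN9 were not well above background on any array and were not tested. Under the normexp background correction the log2 difference of CLDN23 was 0.37 and that of CLDN18 was 0.07, and neither was called. Both are smaller than the folds against the floor, which are therefore not lower limits. CLDN15, a pore-forming claudin of the gut, had a log2 difference of -0.47 (adjusted p = 0.0894 in limma), and CLDN19, a claudin of kidney and nerve, had one of -0.50 (adjusted p = 0.106 in limma). The differences of CLDN6, CLDN9 and CLDN11 were 0.22, 0.04 and 0.13, and each changed sign under quantile normalization and under scaling to the median. CLDN17 is next to CLDN8, CLDN16 next to CLDN1 and CLDN6 next to CLDN9 on the same assembly, again with 0 protein-coding genes between them.

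Claudins are joined in the junction by occludin and related membrane proteins and are held by a scaffold inside the cell. Of 27 genes listed as partners of the junction, 4 had a named probe and all 4 were tested. Among genes with a name, each taken by its brightest tested probe, 37.8% were called, 25.2% as higher in KO and 12.6% as lower, and for 83.8% the genotypes did not overlap. The median log2 difference of those 2702 genes was -0.0019. OCLN and MARVELD3 were higher in KO, PARD6B was not called, and F11R was well above background in KO alone. The median log2 difference was 1.67 with the fitted value of F11R and 1.15 with F11R set against the floor. MARVELD3, a relative of occludin, gave 1.26 and 1.12 in KO against -0.75 and -1.45 in WT, which is a log2 difference of 2.29 with a standard error of 0.28. OCLN, the gene of occludin itself, gave 0.52 and 0.56 in KO against -0.69 and -1.05 in WT, which is a difference of 1.41 with a standard error of 0.19 (adjusted p = 0.00712 in limma). The genotypes did not overlap for either gene, and all 3 probes of OCLN were higher in KO, by up to 2.83. The brightest OCLN probe was not called when either KO array was left out, at differences of 1.42 and 1.39 (limma, adjusted p = 0.0537 and 0.0579). F11R, the junctional adhesion molecule A, was 1.57-fold higher in KO against the floor, which is below 2-fold. Its log2 difference under normexp was smaller, at 0.14. PARD6B, a polarity protein, had a difference of 0.90, which is under 2-fold. The scaffold genes of the TJP family had no named probe.

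The labels give the tissue as thymus. Its T cell genes CD3E, RAG1, PTCRA and LCK were measured, while the regulators FOXN1 and AIRE of thymic epithelium had no named probe. Of 18 genes listed for thymic epithelium, 7 were tested, 3 were higher in KO (CTSV, CCL19 and CD40) and 4 were not called (CCL25, DLL4, LY75 and CCL21), with a median log2 difference of 1.18. The chemokine CCL19 had a difference of 3.26, and CD40, a receptor through which T cells signal to the epithelium of the medulla, had one of 2.10. CCL21, a chemokine of the medulla, ranged from -1.96 to -0.77 in KO and from -4.74 to -2.24 in WT and was not called (adjusted p = 0.131 in limma). The value of CCL21 turned on the WT arrays, with 3.38 and a call without WT replicate 1 (limma, adjusted p = 0.0112) and 0.87 without WT replicate 2, and it was called with the replicate number as a block (limma, adjusted p = 0.0206). CTSV, a cathepsin of the cortex, rose at each of its 10 probes, by between 1.09 and 1.31, but its brightest probe was not called without either KO array, without WT replicate 2 or with scaling to the median.

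Of 34 genes listed for epithelium in general, 6 were tested, 5 were higher in KO and none was lower, with a median log2 difference of 1.37. The keratin KRT8 rose by 2.37, stratifin (SFN) by 2.48, plakoglobin (JUP) by 1.40, E-cadherin (CDH1) by 1.34 and the protease inhibitor SPINT1 by 1.17 on the log2 scale. CDH1 and SPINT1 were not called when either KO array was left out, nor JUP without KO replicate 1. Their log2 differences then stayed between 1.14 and 1.45. The brightest probe of SPINT1 was under 2-fold with quantile normalization, scaling to the median, normexp and the deposited log2 values. The other probe of SPINT1 was also higher in KO, by 2.15. EPCAM, the adhesion molecule on most epithelial cells, was not called at any of its 16 probes. Its brightest probe gave 4.16 and 4.21 in KO against 3.73 and 3.90 in WT, which is a log2 difference of 0.37 with a standard error of 0.16 (adjusted p = 0.127 in limma). The 6 epithelial genes had a summed level of 246 and 236 times the 75th percentile in KO and 75.3 and 49.96 in WT. Such a sum is weighted to its brightest probe, here KRT8, and does not show that each of the genes rose. It was higher in KO, as were the 5 claudins that rose, and its part in their rise was not tested.

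**Figure D3:**
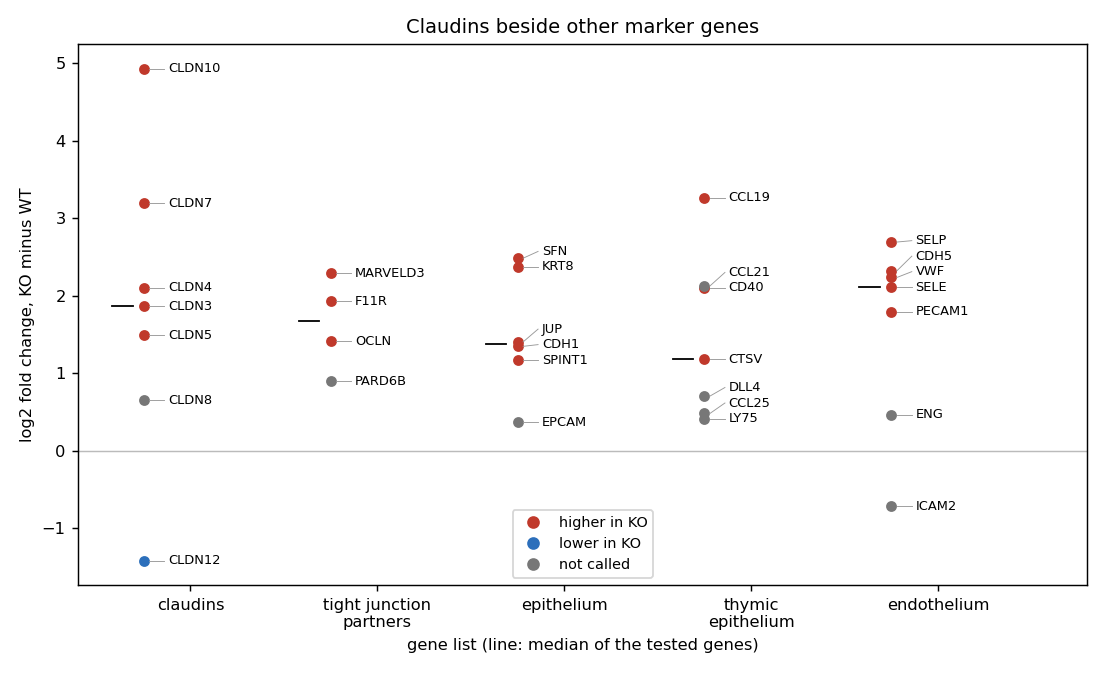
Log2 difference between KO and WT (vertical axis, KO minus WT) of the claudins, of their tight junction partners and of markers of epithelium, thymic epithelium and endothelium (horizontal axis), 1 point per gene by its brightest probe, with a line at the median of each list and colours for the call. F11R is drawn at its fitted value of 1.93 although it was not well above background in WT. EPCAM at 0.37 lies below the claudins that rose, and KRT8 and SFN lie between CLDN4 and CLDN7.

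The claudins were therefore also set against epithelial genes on the same array, a comparison chosen after the values had been seen. The difference between a claudin and EPCAM was larger in KO than in WT, without overlap, by 4.56 for CLDN10, 2.83 for CLDN7, 1.73 for CLDN4, 1.50 for CLDN3 and 1.13 for CLDN5 on the log2 scale. For CLDN8 the value was 0.28 and the genotypes overlapped, and for CLDN12 it changed by -1.79. Against the mean of the 6 epithelial genes, CLDN10 was still higher by 3.41, CLDN7 by 1.67, CLDN4 by 0.58 and CLDN3 by 0.34, without overlap. The change of CLDN5 against that mean was -0.03, with overlap, and that of CLDN8 was -0.87, without overlap. Against KRT8, CLDN10 was higher by 2.56 and CLDN7 by 0.82, whereas CLDN4 changed by -0.27 with overlap, CLDN3 by -0.51, CLDN5 by -0.88 and CLDN8 by -1.72. CLDN10 and CLDN7 were thus higher against each of these references, CLDN12 was lower against each, with -2.94 against the epithelial mean and -3.79 against KRT8, and the sign for CLDN4, CLDN3, CLDN5 and CLDN8 depended on the reference. No test was made of these values, which share the reference gene on each array.

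**Figure D4:**
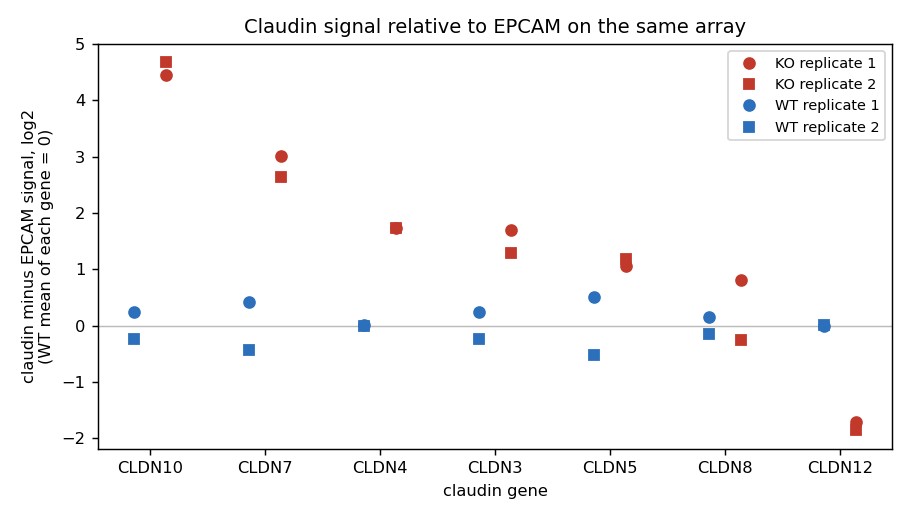
Log2 signal of each claudin minus that of EPCAM on the same array, as the difference from the WT mean of that claudin (vertical axis), for each claudin (horizontal axis), with 1 point per array. The KO points of CLDN10, CLDN7, CLDN4, CLDN3 and CLDN5 lie above the WT points, those of CLDN8 overlap with them and those of CLDN12 lie below.

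Markers of the endothelium, in which CLDN5 is the usual claudin, were read beside it. Of 19 genes listed, 7 were tested, 5 were higher in KO and 2 were not called, with a median log2 difference of 2.11. VE-cadherin (CDH5) had a difference of 2.32, von Willebrand factor (VWF) 2.23, PECAM1 1.79, and the selectins SELE 2.11 and SELP 2.69. ENG had a difference of 0.46 (adjusted p = 0.094 in limma) and ICAM2 one of -0.72, which is under 2-fold. PECAM1 was not called when either KO array was left out, at differences of 1.86 and 1.72. On the same array, CLDN5 lay below the mean of the endothelial genes by 1.63 and 1.65 in KO and by 1.37 and 1.79 in WT. The KO values fell between the WT values. Relative to the mean of these 7 genes CLDN5 did not stand apart between the genotypes, with a difference of -0.06. That mean includes ENG and ICAM2, and by its brightest probe each of the 5 genes called higher rose by more than the 1.49 of CLDN5. The lowest of the 3 PECAM1 probes rose by 1.27 and the lower of the 2 VWF probes by 1.49. The summed level of the endothelial genes was 23.1 and 25.8 times the 75th percentile in KO and 11.3 and 9.33 times in WT, and its part in the rise of CLDN5 was not tested.

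Among 15 genes listed as regulators of claudins, 3 had a named probe and 2 were tested. KLF5, a transcription factor of epithelial cells, gave -1.35 and -1.63 in KO against -3.97 and -4.54 in WT, which is a log2 difference of 2.77 with a standard error of 0.26 (adjusted p = 0.00334 in limma). KLF4, a relative of KLF5, had a difference of 1.43 at its brightest probe and was not called (adjusted p = 0.0804 in limma), with 2 of its 7 probes called higher. That probe was called with the slide as a block (limma, adjusted p = 0.0237) and under normexp (limma, adjusted p = 0.0426), and its difference was 2.09 without WT replicate 1 and 0.77 without WT replicate 2. HNF4A was not well above background on any array.

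The genes whose values over the 4 arrays were most like those of CLDN10 and CLDN5 were found by the root mean square distance between the values, each gene centred on its own mean, among 2513 named genes well above background on all arrays. For CLDN5 the nearest were F3, the tissue factor of coagulation, at a distance of 0.031, then the peptidase ENPEP at 0.041, BLNK, an adaptor of B cell receptor signalling, at 0.046, ITM2A at 0.057 and SERINC2 at 0.060. Their log2 differences lay between 1.41 and 1.48. For CLDN10 the nearest were the lymphocyte antigen CD180 at 0.134, the chemokine CXCL9 at 0.202, endothelin 3 (EDN3) at 0.211, PDLIM3 at 0.333 and periostin (POSTN) at 0.339, with log2 differences between 4.46 and 4.96. These distances rest on 4 arrays and describe likeness in these samples. Genes chosen in this way have log2 differences near that of CLDN5 or CLDN10 by construction.

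The other cell types of the organ also moved between the genotypes. All 13 tested thymocyte markers were lower in KO. Their median log2 difference was -2.60, with a summed level of 36.6 to 37.5 in KO and 229 to 310 in WT, in multiples of the 75th percentile. The 7 tested genes of cell division were lower as well, with a median of -2.48. All 10 macrophage markers were higher, with a median of 2.12 and a summed level of 241 to 305 in KO and 52.7 to 63.9 in WT, of which C1QB, C1QA and AIF1 were the brightest. Of 5 fibroblast markers 4 were higher, with a median of 1.79. Fat markers, of which 4 of 7 were higher, reached a summed level of 121 in KO replicate 2 and 42.1 in KO replicate 1, compared with 18.5 and 10.1 in WT replicates 1 and 2. Of 10 markers of skeletal muscle, each taken by its brightest probe, 3 were lower in KO (MYH2, TNNT3 and MYL1) and 7 were not called, with a median of -1.27. MYL1 was well above background in WT alone. Of all their probes, 7 of 10 for CKM and 3 of 4 for DES were higher in KO. In contrast, 7 of 16 probes of ACTA1 and 1 of 2 probes of TNNC2 were lower. None of 3 tested markers of thyroid and parathyroid was called by its brightest probe. Of the 5 tested probes of thyroglobulin (TG), 3 were higher in KO, by up to 2.27. Of the 2 probes of SLC5A5, 1 was lower, with a log2 difference of -1.03. Markers of red cells had no named probe. CLDN12 moved in the direction of the thymocyte markers, and the 5 claudins that rose moved in that of the macrophage, fibroblast and fat markers. The part of these cells in any claudin value was not tested.

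Each claudin difference was also computed under other ways of processing the arrays and with each array left out. The values within a slide left aside, it ranged from 4.15 to 5.08 for CLDN10, from 2.85 to 3.53 for CLDN7, from 1.54 to 2.17 for CLDN4, from 1.33 to 2.04 for CLDN3 and from 1.06 to 1.92 for CLDN5. CLDN8 ranged from 0.03, under normexp, to 1.15, without KO replicate 2, and CLDN12 from -1.68 to -1.31. Both ends of the ranges of CLDN7 and CLDN5 came from leaving out a WT array.

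**Figure D5:**
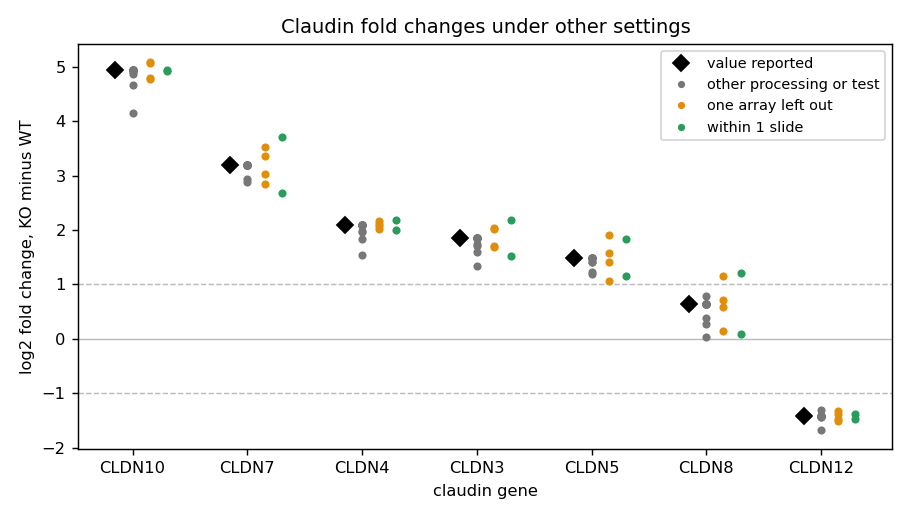
Log2 difference between KO and WT (vertical axis, KO minus WT) of each tested claudin (horizontal axis) as reported (diamonds), under other processing or tests, with 1 array left out and within 1 slide (points), with dashed lines at 2-fold. No point of CLDN10, CLDN7, CLDN4, CLDN3, CLDN5 or CLDN8 lies below 0, and none of CLDN12 lies above it.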

How the data were processed

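Thymus RNA of 2 KO and 2 WT pigs was hybridised to 1-colour (Cy3) porcine Agilent arrays. The authors deposited scanner output of Agilent Feature Extraction 11.0.1.1, whose processed signal is an intensity with the background subtracted and without normalization between arrays, and a table of log2 values for 27970 of the probes used here, which correlated with the scanner values at 0.9998 or more on each array. The methods also mention Cy-5, but labels and files hold 1 channel. Genotypes came from the labels.

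Control and outlier spots were left out, which removed 6 of 43603 probes. The log2 processed signal minus the array's 75th percentile was averaged per probe and fitted with limma 3.58.1 (lmFit, eBayes) in R 4.3.3. Tables and plots used matplotlib 3.10.9 and pandas 2.3.3 in Python 3.11.15. Where neither array of a genotype marked a probe as well above background, a fold against the floor is given, which is no lower limit. It sets the brighter mean against a floor, the mean over the dim arrays of their lowest signal marked as well above background (or of the probe itself, if larger). Probes (7111) with a RefSeq accession were named through the RefSeq table of Sscrofa11.1, which matched 6686 probes of 3020 genes. The files name no build, so that table was used only for names and for which genes are next to each other. Each gene was represented by its brightest probe. The number of arrays limits the precision.

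All claudins of the rule, IL2RG and the called genes of the claudin, junction, epithelium, regulator and endothelium lists are named, as are the 5 genes most like CLDN5 and like the other member with the largest change. The members and lists were chosen with earlier results of these data known. Some listed genes are not reported here and were taken out of the lists before counting. The procedure was tested on simulated data. Alternatives tried were normexp with an offset of 50, scaling to the median, quantile normalization, the deposited log2 values, no filter or a stricter filter on dim probes, a slide or replicate block, an intensity trend, the methods' t-test, fold change alone, a 4-fold threshold, 1 probe per gene, within-slide values and each array left out. Normexp used the median spot intensity, since the files give no mean.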

Additional observations from a re-analysis of the deposited data

How the results depend on the processing

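None of CLDN3, CLDN4, CLDN5, CLDN7, CLDN8, CLDN10 and CLDN12 changed direction under the 10 alternatives that gave a value of their own (the other 9 changed only the test, the filter or the threshold). The methods' t-test called 0 claudin probes with Bonferroni correction (0 higher and 0 lower, and 0 of all probes). With Benjamini-Hochberg adjustment it called 2 (2 higher, 0 lower, and 1505 of all probes). At an unadjusted p under 0.05 it called 5 (4 higher, 1 lower, and 8611 of all probes). IL2RG kept its log2 difference of -3.41 but was not called by either adjusted form. At 4-fold, 3 claudins were higher and 0 lower, and 4878 of all probes passed. Normexp called 6611 of all probes and 6 claudins. Leaving out 1 array gave 4 to 6 called claudins, with 4 to 5 higher and 0 to 1 lower, and between 6093 (without KO replicate 2) and 12713 of all probes, with 6424 without KO replicate 1. Of all calls, 61.7% were higher in KO, compared with 47.8% with scaling to the median, 48.0% with the Benjamini-Hochberg t-test and 73.1% at 4-fold. Scaling to the median moved the median of all tested probes from -0.06 to -0.32. The values of CLDN11 were -0.24, -0.13 and -0.21 with quantile, median and normexp scaling, those of CLDN6 were -0.034 and -0.041 with quantile and median scaling, and those of CLDN9 were -0.072, -0.22 and -0.073 with quantile, median and deposited values. With 1 array left out CLDN11 ranged from -0.48 to 0.74 and CLDN9 from -0.15 to 0.22. The cause was not tested. With the replicate number as a replicate block, 6 claudins and 10668 of all probes were called. Deviations of samples with the same number correlated at -0.29, and the crossed pairing, which is the slide, called 6 claudins and 11124 of all probes. Dim probes (CLDN8, CLDN18, CLDN23) are limited by signal over background.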
